A study of Mus musculus with 3 samples.

Results

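Broad H3K4me1 domains were the H3K4me1-marked regions of resting splenic NK cells that spanned 10 kb or more, and 992 of the 49902 regions in the list met this width. They were selected on width alone, so their width is described here and not tested. Chromatin of freshly isolated, unstimulated splenic NK cells from ICR mice was precipitated with a homemade polyclonal antibody to Runx3 or a monoclonal antibody to H3K4me1, and non-immune rabbit serum (NIS) gave the control. Each of these 3 groups had 1 sample, from 40000000 cells fixed in 1% formaldehyde, sheared to about 300 bp and read over 40 bp. All groups shared strain, tissue and resting state, and no genotype or treatment was compared. The labels name NKp46 as the sorting marker, whereas the methods of the study name DX5. With 1 list per antibody there was no spread between replicates, so all comparisons below are descriptions, and their intervals (95%) cover counting error only.

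H3K4me1, the single methylation of lysine 4 of histone H3, marks enhancers and the flanks of active promoters. Unusually long stretches of such marks are often found at genes that define a cell type, where many enhancers lie close together. Runx3 is a DNA-binding factor of the RUNX family that acts in the development and effector functions of NK cells and cytotoxic T cells. It binds a short consensus through its Runt domain, frequently beside factors of the ETS family.

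DNA under Runx3 in the domains is shown for 7 windows of 150 bp, each around the midpoint of the Runx3 peak nearest the domain centre. They come from the widest eligible domain of each of 6 lists of NK genes and from the widest other domain, and an eighth window is the centre of the widest domain that held no Runx3 peak. They are printed so that the consensus can be read in place beside its counts. All are plus strand of mm9. The Klrd1 window (chr6:129548134-129548283) overlaps an exon, and the Fasl window (chr1:163705115-163705264) is intergenic. The other 5 peak windows are intronic, in Smad3 (chr9:63570085-63570234), Jak1 (chr4:100872332-100872481), Fyn (chr10:39199260-39199409), Rapgef1 (chr2:29505020-29505169) and Zmiz1 (chr14:26324704-26324853). The peak-free window is also intronic, in Mbnl1 (chr3:60379093-60379242). Capitals mark the RUNX consensus (TGTGGT, its variant TGTGGC, the form TGCGGT or the form TGCGGC, on either strand).
Klrd1: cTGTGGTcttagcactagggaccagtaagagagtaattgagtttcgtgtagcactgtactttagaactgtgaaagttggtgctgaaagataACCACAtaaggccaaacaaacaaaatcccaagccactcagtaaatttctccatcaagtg
Fasl: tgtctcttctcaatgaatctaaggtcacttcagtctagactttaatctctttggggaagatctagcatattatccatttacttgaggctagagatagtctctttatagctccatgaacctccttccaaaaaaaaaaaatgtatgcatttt
Smad3: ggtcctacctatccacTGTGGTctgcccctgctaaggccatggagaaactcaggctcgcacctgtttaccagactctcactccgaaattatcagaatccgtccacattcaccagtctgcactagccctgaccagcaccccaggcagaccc
Jak1: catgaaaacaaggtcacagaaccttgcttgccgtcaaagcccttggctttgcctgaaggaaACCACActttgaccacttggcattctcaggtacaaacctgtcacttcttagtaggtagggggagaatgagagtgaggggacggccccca
Fyn: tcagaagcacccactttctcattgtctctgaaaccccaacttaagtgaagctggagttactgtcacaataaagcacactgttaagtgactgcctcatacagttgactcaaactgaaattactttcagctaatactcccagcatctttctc
Rapgef1: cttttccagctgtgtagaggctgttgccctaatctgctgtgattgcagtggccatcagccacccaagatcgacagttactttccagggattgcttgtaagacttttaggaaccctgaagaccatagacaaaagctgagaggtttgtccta
Zmiz1: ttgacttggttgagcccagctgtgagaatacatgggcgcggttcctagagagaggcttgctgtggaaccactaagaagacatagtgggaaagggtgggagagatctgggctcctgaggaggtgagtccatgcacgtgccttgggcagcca
Mbnl1, domain without a peak: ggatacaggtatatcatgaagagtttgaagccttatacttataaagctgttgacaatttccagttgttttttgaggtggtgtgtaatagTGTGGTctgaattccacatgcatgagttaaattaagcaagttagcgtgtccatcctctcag

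Of these windows, Klrd1 held 2 matches, and Smad3, Jak1 and the peak-free Mbnl1 window held 1 each. The windows of Fasl, Fyn, Rapgef1 and Zmiz1 held 0, which says only that these letters are not in those 150 bp.

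The domains made up 1.99% of the H3K4me1 regions and 12.6% of the marked bases (16.0 Mb). Their median width was 13388 bp, with quartiles of 11326 and 17557 bp and a maximum of 96856 bp. Most were close to the limit: 625 were under 15 kb wide and 15 reached 50 kb. Just inside the limit lay domains at Gsdmc (10000 bp), En1 (10001 bp) and Pdzd8 (10001 bp), and just outside it lay regions at Fryl (9997 bp), Inpp5d (9994 bp) and 5430427O19Rik (9990 bp). These 6 regions held 1, 3, 0, 2, 2 and 0 Runx3 peaks, in that order. The domains occurred on 20 chromosomes, from 0.730 per Mb on chromosome 11 (89 domains) to 0.0720 per Mb on chromosome X (12 domains).

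Runx3 peaks were found in most domains. At least 1 of the 15524 peaks overlapped 864 of 992 domains (87.1%, Wilson interval 84.9 to 89.0%), where the share over all H3K4me1 regions was 28.6%. In narrower regions the share was 66.4% at 5 to 10 kb, 36.4% at 2 to 5 kb and 17.4% under 2 kb. A longer region offers more bases, so the number per length was also taken. By midpoints, the domains held 1.30 peaks per 10 kb (exact Poisson interval 1.25 to 1.36). Regions of 5 to 10 kb held 1.28 (1.23 to 1.33), an interval that overlaps that of the domains, and regions under 2 kb held 0.694 (0.668 to 0.721). Thus the broad domains had a higher share with a peak than regions of 5 to 10 kb, while their peaks per length were close. Neither difference was tested.

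**Figure D1:**
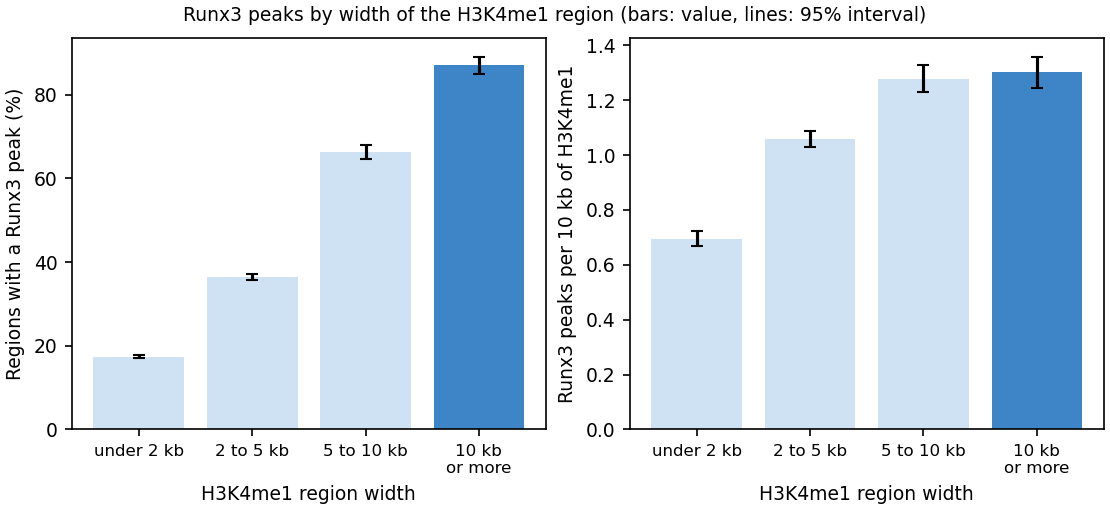
The left panel shows the percentage of H3K4me1 regions that overlapped at least 1 Runx3 peak and the right panel the number of Runx3 peak midpoints per 10 kb of region, by width of the region. Bars are values and lines their 95% intervals (Wilson on the left, exact Poisson on the right); the share rises to 87.1% in the domains of 10 kb or more, while the density is 1.28 at 5 to 10 kb and 1.30 in the domains.

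The number of peaks per domain ran from 0 in 128 domains to 12 in 1 domain, with a median of 2. There were 258 domains with 1 peak and 259 with 2, while 347 had 3 or more and 81 had 5 or more. In all, 2147 peaks overlapped a domain, and the 2083 with their midpoint inside were 13.4% of the Runx3 list. Peaks covered 12.3% of the domain bases and at most 50.6% of a domain, in a domain outside genes whose nearest start, 63114 bp away, was that of Zfp36l2, an RNA-binding protein that promotes mRNA decay. Among the domains themselves, the share with a peak was 78.7% at 10 to 12 kb, 87.3% at 12 to 15 kb, 93.8% at 15 to 20 kb, 94.9% at 20 to 30 kb and 96.3% in the 54 of 30 kb or more. The density did not follow this order. It was 1.27, 1.37, 1.34 and 1.33 peaks per 10 kb in the first 4 of these classes and 1.14 (1.01 to 1.29) in the widest.

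**Figure D2:**
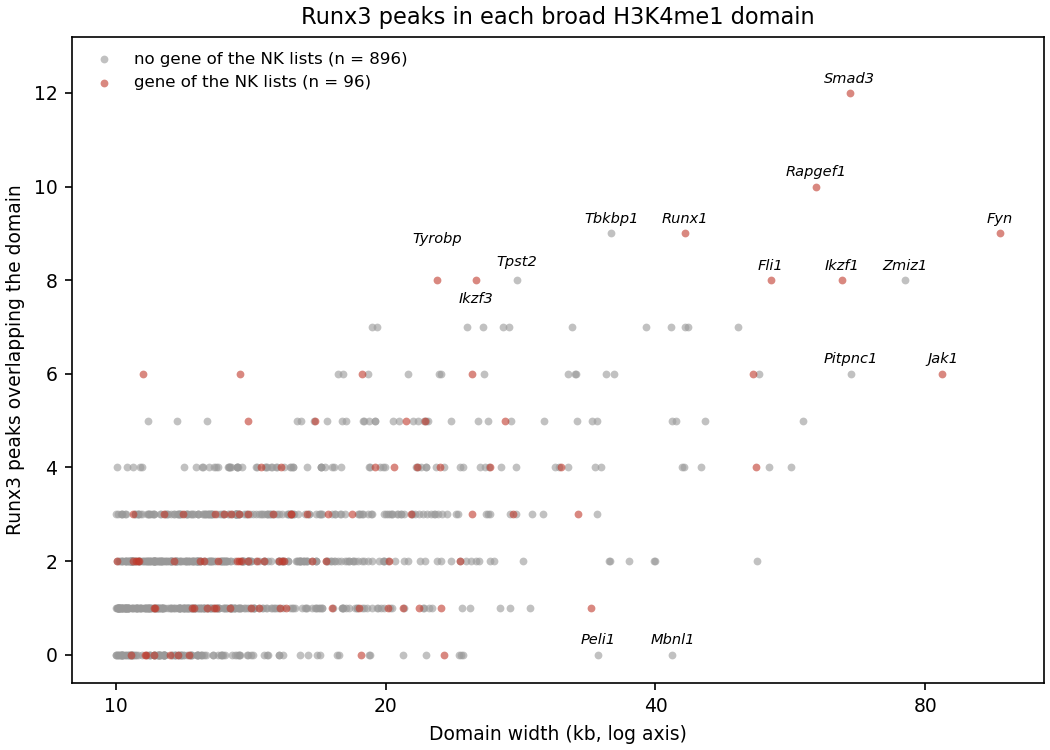
Each point is 1 of the 992 domains, with its width in kb on a log axis and the number of Runx3 peaks that overlapped it; red points touch a gene of the NK lists. Smad3 had the most peaks (12) and Fyn the largest width (96856 bp), and Mbnl1 and Peli1 mark wide domains with 0 peaks.

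Peaks in a shared domain lay kilobases apart. Over 1235 pairs of neighbouring midpoints in 589 domains the median spacing was 3487 bp (interval 3272 to 3723 bp), with quartiles of 2006 and 5677.5 bp and a range of 723 to 31608 bp. Of these spacings, 3.97% were under 1 kb, 20.9% were 1 to 2 kb, 43.4% were 2 to 5 kb, 24.7% were 5 to 10 kb and 7.04% were longer. Neighbouring peaks over the whole list had a median distance of 29802 bp, but spacings within a domain are limited by its width. Under the same kind of limit, the median spacing was 2345 bp within regions of 5 to 10 kb and 1429.5 bp at 2 to 5 kb. An even spread was taken as the width divided by the number of midpoints plus 1, and its median over the 589 domains was 3929 bp. It counts each domain once, whereas 3487 bp is over pairs, so these medians are not compared. In 307 of the 589 domains the median spacing was below the even value of the domain. In domains with a midpoint inside, the longest stretch between neighbouring midpoints, or from a midpoint to an edge, was also taken. It had a median of 7442 bp, and as a share of the width the median was 52.7%.

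Within the domains, peaks were sparse near the edges. The outermost 1 kb at each edge held 0.580 midpoints per 10 kb (0.479 to 0.696), and the next kilobase held 1.10. From 2 to 5 kb inward the density was 1.497 (1.4003 to 1.5986), from 5 to 10 kb it was 1.46, and deeper than 10 kb it was 1.27 (1.11 to 1.45). On a scale from 0 at the nearer edge to 1 at the centre, the median midpoint lay at 0.560 (0.544 to 0.577) in the domains, at 0.632 in regions of 5 to 10 kb, at 0.763 at 2 to 5 kb and at 0.388 under 2 kb, so the position had no single trend with width.

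The layouts differed between domains of like width. Il18r1 encodes the ligand-binding chain of the interleukin-18 receptor, which primes NK cells for interferon production. Its domain (chr1:40520360-40539161, 18802 bp) had 6 peaks, with midpoints 2066, 4087, 6527, 10429, 12442 and 16096 bp from the lower edge. The spacings ran from 2013 to 3902 bp, and the first of these midpoints was 29 bp from an annotated start. Prf1 encodes perforin, the pore-forming protein of cytotoxic granules. Its domain (chr10:60757139-60772408, 15270 bp) contained the whole gene and had 4 midpoints, 3071, 6951, 11864 and 14246 bp from the lower edge. By contrast, the 18675 bp domain of Il2rb, the signalling chain shared by the interleukin-2 and interleukin-15 receptors, was touched by 1 peak at its margin and held 0 midpoints. That peak lay 19 bp from a protein-coding start. A neighbouring domain of 12308 bp, whose edge was 2 bp from the Il2rb start, had 2 peaks.

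**Figure D3:**
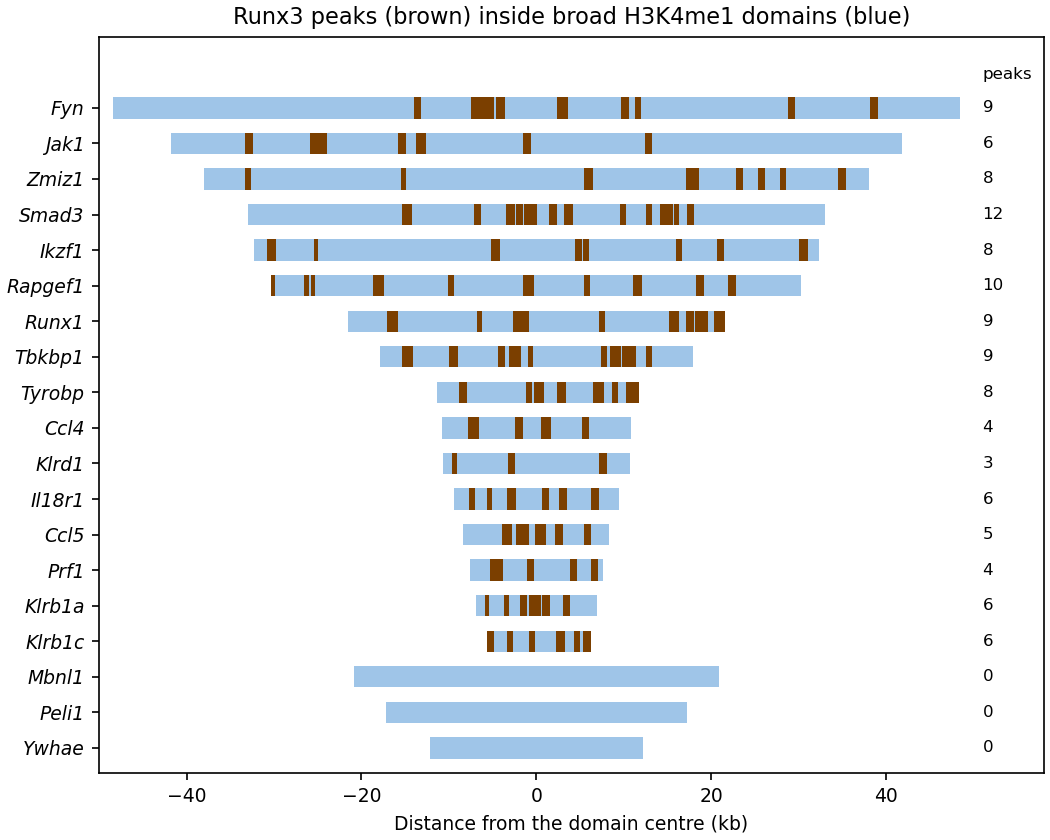
To-scale maps of 19 named domains, with distance from the domain centre in kb on the horizontal axis, the H3K4me1 domain in blue, Runx3 peaks in brown and the number of peaks at the right. The 12 peaks of Smad3 gather around the middle of its domain, and the 9 of Fyn leave a stretch of 34814 bp without a midpoint. The domains of Mbnl1, Peli1 and Ywhae have 0 peaks.

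Gene bodies carried most of the domains. A protein-coding start lay inside 244 domains (24.6%), a further 573 (57.8%) touched a protein-coding gene without its start, and 175 (17.6%) touched none. Introns made up 74.4% of the domain bases and exons 3.88%. Peaks per 10 kb were 1.52 (1.405 to 1.641) in domains with a start, 1.11 (1.04 to 1.18) in gene-body domains and 1.67 (1.51 to 1.84) in domains outside genes. The share with a peak followed the same order, 93.0%, 82.0% and 95.4%. In 130 of the 244 domains with a start, a midpoint lay under 1 kb from it. Over all peaks in domains, 11.6% (10.27 to 13.01%) lay under 1 kb from an annotated start, against 17.5% at 5 to 10 kb, 29.3% at 2 to 5 kb and 63.7% in regions under 2 kb.

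Around a start, the mark reached further downstream than upstream. In 224 domains that contained exactly 1 gene start, it reached a median of 4100 bp upstream and 9610 bp downstream, and 153 of them (68.3%, 61.95 to 74.04%) had more marked bases downstream. Starts of any protein-coding transcript were counted, also those within a gene, so bases upstream of a start could lie in the gene body too. With 1 start per gene, 12.7% of all domains contained a start. Of 748 domains without a start inside, 212 (28.3%) had one under 1 kb beyond an edge and 330 (44.1%) under 5 kb, and the median distance was 8402 bp. Another H3K4me1 region lay under 1 kb away from 643 domains. When regions under 1 kb apart were joined before the 10 kb limit was applied, 1740 domains resulted and 50.7% of them contained a start.

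Of the 10 widest domains, 6 touched a gene of the NK lists, as did 96 of all 992 domains. These 6 genes were long (87924 to 196527 bp), and the lists were drawn up with earlier results of these data known. The part of gene length was not tested. Fyn, a Src-family kinase downstream of activating receptors, had the widest domain (chr10:39147926-39244781, 96856 bp, 9 peaks) and a second of 51855 bp with 4 peaks. In the first, the midpoints were 3394 to 25065 bp from the nearest protein-coding start. Jak1, a kinase of the common-gamma-chain cytokine receptors, followed with 83618 bp and 6 peaks (chr4:100831654-100915271). Smad3, an effector of TGF-beta signals, had 12 peaks in 65870 bp (chr9:63537892-63603761), at a median spacing of 2075 bp and 3719 to 18156 bp from a start. Ikzf1, the lymphoid factor Ikaros, had 8 peaks in 64550 bp (chr11:11588563-11653112), at a median spacing of 9430 bp. These widths and peak numbers show that Smad3 had more peaks than wider domains such as Jak1. The others among the 10 widest were Zmiz1, a transcriptional coactivator (76020 bp, 8 peaks), Pitpnc1, a phospholipid transfer protein (66064 bp, 6 peaks), Rapgef1, an activator of Rap1 in adhesion signalling (60427 bp, 10 peaks), Ankrd11, a chromatin regulator (58434 bp, 5 peaks), Fam65b (56700 bp, 4 peaks) and Fli1, an ETS factor (53762 bp, 8 peaks).

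Domains with many peaks need not be the widest. Runx1, the paralogue of Runx3, had 9 peaks in 43175 bp (chr16:92781777-92824951). Tbkbp1, which encodes a binding partner of the kinase Tbk1 and lies next to Tbx21, had 9 peaks in 35717 bp. Tpst2, a tyrosylprotein sulfotransferase, had 8 peaks in 28006 bp. Ikzf3, the Ikaros relative Aiolos, had 8 peaks in a 25189 bp domain and 0 peaks in a second domain of 23247 bp, so that both extremes occurred in the same gene. Among domains with at least 3 midpoints the densest were at the NK receptor genes Klrb1c, which encodes NKR-P1C (4.67 per 10 kb over 10713 bp), and Klrb1a (4.36 over 13752 bp), with the remote domain named for Zfp36l2 between them (4.604 over 10860 bp). The 6 peaks of the Klrb1a domain (chr6:128567543-128581294) had midpoints 1198 to 10339 bp from its lower edge, the third of them 28 bp from a protein-coding start. Klrb1a and Klrb1c are close paralogues and belong to a region that differs between mouse strains, and how reads of ICR mice aligned to it was not tested. Densities of 3.58 to 3.99 followed at Arhgef3, Gcnt2, 1810008A18Rik, Chd7, Ptpn7, Fam107b and Myo1f.

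NK genes were frequent among the genes in domains. The domains touched 750 of 22348 protein-coding genes (3.36%), contained a start of 261 (1.17%) and enclosed 45 entirely. Of 166 genes in 6 NK lists they touched 76 (45.8%, 38.4 to 53.4%) and contained a start of 34 (20.5%). By list, they touched 19 of 27 NK transcription factors (70.4%), 17 of 29 activation signalling genes (58.6%), 15 of 29 adhesion and trafficking genes (51.7%), 10 of 23 cytotoxicity genes (43.5%), 9 of 29 cytokine receptor and signalling genes (31.0%) and 6 of 29 NK receptors (20.7%). Longer genes offer more bases to touch: among genes under 10 kb the domains touched 0.937% of all and 35.1% of NK-list genes, and among genes over 100 kb 8.26% and 65.5%. The lists were drawn up with earlier results of these data known, and the counts are not independent evidence of an NK pattern.

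**Figure D4:**
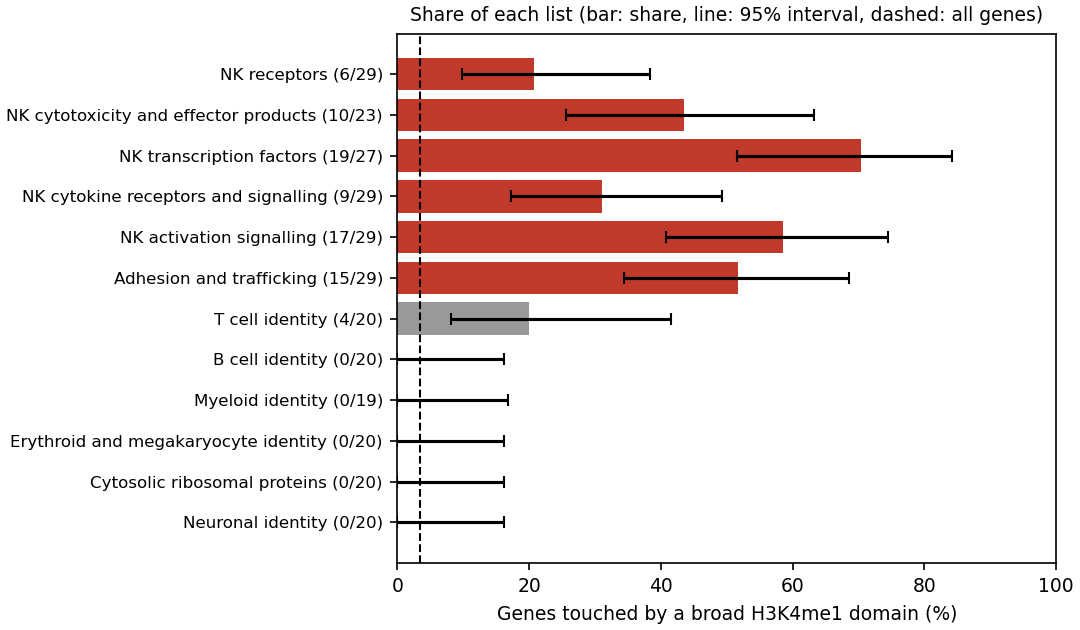
The percentage of genes of each list that a broad domain touched, with 95% Wilson intervals; numbers beside the names are genes touched over genes matched, red bars are NK lists and the dashed line is the 3.36% of all protein-coding genes. NK transcription factors reach 70.4%, and 5 lists stand at 0.

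Lists for other cells and for housekeeping were counted in the same way. The domains touched 4 of 20 T cell identity genes, Tcf7 (22283 bp, 5 peaks), Satb1 (18184 bp, 1 peak), Cd28 (11523 bp, 2 peaks) and Zbtb7b (10434 bp, 1 peak). Tcf7, which encodes TCF-1, also acts in NK cells. Cd3e, Cd4 and Cd8a, which define T cells, were not touched, and 0 of 20 B cell, 0 of 19 myeloid, 0 of 20 erythroid and megakaryocyte, 0 of 20 ribosomal protein and 0 of 20 neuronal genes were. A count of 0 among 20 allows a share of up to 16.1% (Wilson). Ribosomal protein genes are short, with a median length of 3925.5 bp, but all 20 overlapped an H3K4me1 region of some width. Over the 5 lists of other cell identities, 4 of 99 genes (4.04%, 1.58 to 9.93%) were touched. This pooled share was near the 3.36% of all protein-coding genes, and counts of 0 in lists of this size are near it too. However, all 4 were T cell genes, so the pooled share does not describe that list. The T cell share alone was 20% (8.07 to 41.6%), above 3.36% and close to the 20.7% of NK receptors. Of the 99, 58 (58.6%) overlapped an H3K4me1 region of some width, as did 63.3% of all protein-coding genes. In the 6 NK lists, 161 of 166 genes (97.0%) did. The shares touched by a domain thus compare sets that also differ in how many genes were marked at all.

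Among NK receptors, the heterodimer partner Klrd1 (CD94) and the activating receptor Klrk1 (NKG2D) shared a domain of 21346 bp with 3 peaks (chr6:129540347-129561692). Cd244, a receptor of the SLAM family, had a 12868 bp domain with 1 wide peak that covered 34.9% of it. Cd226, an adhesion receptor for tumour ligands, had 3 domains that held 4 peaks together. The other 23 receptor genes had no region of 10 kb, and Klrc2, Klra3 and Klra8 overlapped no region. Only unique alignments were kept, and how reads of ICR mice aligned to these genes was not tested. A missing or narrow region therefore need not mean that the mark was absent. The widest H3K4me1 region that touched Ncr1, the gene of NKp46, was 6846 bp, and that of Klra4, a Ly49 receptor, was 9316 bp.

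Genes of cytotoxicity were short, with a median of 6428 bp, and their domains often reached beyond them. Fasl, the death ligand, is 7807 bp long and had domains of 27177 bp with 5 peaks and 14971 bp with 3 peaks. Ccl3 and Ccl4, chemokines released on activation, shared a domain of 21652 bp with 4 peaks (chr11:83459423-83481074) that enclosed both. Ccl5, another chemokine, had 16689 bp with 5 peaks at a median spacing of 2088 bp. Tnf shared 20442 bp and 4 peaks with Lst1 and Ltb. Further domains touched Gzmm (13720 bp, 3 peaks), Gzma (13636 bp, 2 peaks), the cathepsin gene Ctsw (10613 bp, 2 peaks) and Serpinb9, an inhibitor of granzyme B (11495 bp, 0 peaks). The widest regions that touched Ifng (6114 bp) and Gzmb (8898 bp) were under the limit.

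The transcription factor Tbx21, T-bet, had a 16346 bp domain with 3 peaks that covered 83.5% of the gene (chr11:96957444-96973789). Runx3 itself had a 21073 bp domain with 5 peaks over 36.8% of its gene (chr4:134710165-134731237). Ets1, required for NK development, had domains of 32796 and 12919 bp with 4 peaks together, and Stat4, which transmits interleukin-12 signals, had 27746 bp with 3 peaks. Gata3 had 11306 bp with 3 peaks. Nfil3, an early factor of innate lymphocytes, had a 10380 bp domain without a peak. For Eomes, the T-box partner of Tbx21, the widest region that touched the gene was 7570 bp. A pair of domains outside genes had Eomes as their nearest start, 1 of 13638 bp with 4 peaks (50266 bp away) and 1 of 12352 bp with 0 peaks (78945 bp away).

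In activation signalling, the adaptors Tyrobp (DAP12) and Hcst (DAP10), which pair with NK receptors that lack signalling tails, shared a domain of 22807 bp with 8 peaks (chr7:31184521-31207327). Its median spacing was 1866 bp, and midpoints 13 and 25 bp from a start were among them. Ptprc, the phosphatase CD45, had 51411 bp with 6 peaks. Prkch and Cblb had 4 domains each, with 6 and 8 peaks together. Cd247, the zeta chain, had 3 domains with 5 peaks, and Lck (15670 bp, 3 peaks) and Zap70 (14020 bp, 2 peaks) had 1 each. For adhesion and trafficking, Itga2, the gene of the DX5 antigen, had 24946 bp with 3 peaks, and Itgb2 had 14531 bp with 4.

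Taking all 96 domains that touched an NK-list gene, 87 (90.6%, 83.13 to 94.99%) had a peak, against 777 of the other 896 (86.7%, 84.3 to 88.8%). Their densities were 1.38 (1.23 to 1.56) and 1.29 (1.23 to 1.35) per 10 kb. The intervals overlap in both measures, and no difference was tested. Domains with 3 or more peaks were 47.9% (38.2 to 57.8%) of the NK-list domains and 33.6% (30.6 to 36.8%) of the others. These intervals do not overlap, and the NK-list domains were also wider, with median widths of 15291.5 and 13190.5 bp.

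The 128 domains without a peak were chiefly in gene bodies: 103 touched a gene without its start, 17 contained a start and 8 (6.25%) touched no gene, whereas 19.3% of domains with a peak touched none. The widest was at Mbnl1, a splicing factor (chr3:60358285-60400051, 41767 bp). Its nearest Runx3 peak was 23340 bp away, and the 2 other Mbnl1 domains, of 51956 and 13407 bp, held 2 peaks and 1 peak. Next came Peli1, a ubiquitin ligase of innate immune signalling (34501 bp, nearest peak 1642 bp away). Ywhae, a 14-3-3 protein (24412 bp), Gpbp1 (24277 bp), the nuclear import receptor Kpna4 (24119 bp), Ikzf3 (23247 bp) and Gatad2a, a subunit of the NuRD complex (22166 bp), followed. The transcription factor Mef2a (20903 bp) and the protease Sppl3 (19228 bp) were also among the 10 widest.

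Runx3 was often bound nearby. From the edge of a domain without a peak to the nearest peak the median distance was 7316.5 bp, with a range of 481 to 819634 bp, and 38 had a peak within 2 kb. Of the 128, 93 had another H3K4me1 region under 1 kb away, and 47 (36.7%) became part of a region with a peak when such gaps were closed. A gene start lay under 1 kb beyond an edge in 51 of 111 domains without a peak or a start (45.9%, 37.0 to 55.2%) and in 161 of 637 with a peak and no start (25.3%, 22.1 to 28.8%). At those starts a Runx3 midpoint lay under 1 kb away in 20 of 51 (39.2%, 27.0 to 52.9%) and in 108 of 161 (67.1%, 59.5 to 73.9%).

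Base composition moved with peak number. Domains without a peak had a median GC content of 42.1% (41.1 to 43.7%) and domains with a peak 46.9% (46.4 to 47.3%). RUNX consensus matches per kb were 1.51 (1.38 to 1.62) and 1.97 (1.92 to 2.01), and each of the 128 held at least 1 match. From the lowest to the highest of 4 equal groups of domains by GC, the share with a peak was 71.8%, 90.3%, 91.9% and 94.4% and the density 0.887, 1.31, 1.48 and 1.51 per 10 kb. In regions of 5 to 10 kb the medians without and with a peak were 44.5% and 46.5%, and at 2 to 5 kb 46.4% and 46.6%. Domains without a peak were also narrower (median 11719.5 against 13677 bp). The part of base composition and of width in the lack of peaks was not tested, and read coverage cannot be seen in the lists.

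**Figure D5:**
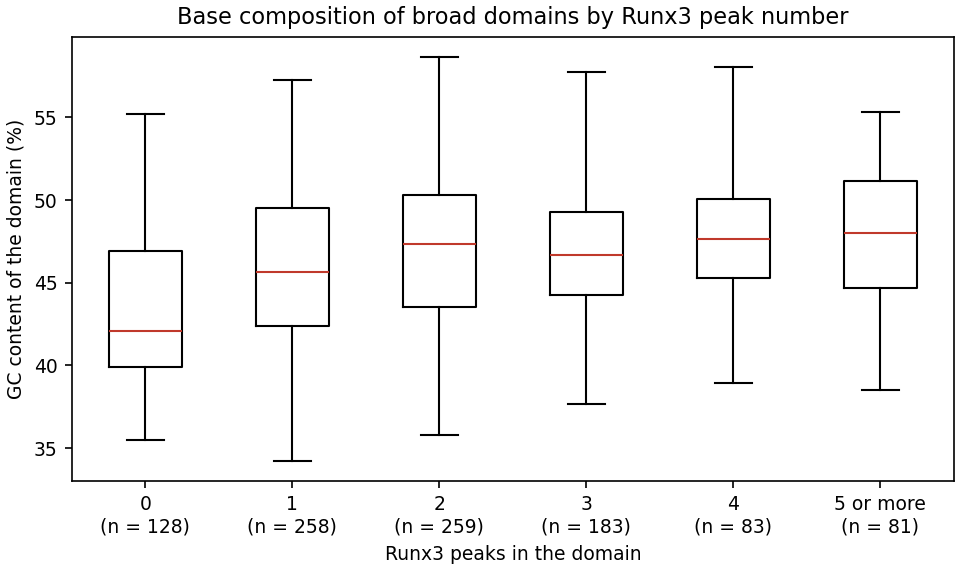
GC content in percent of the 992 domains, grouped by the number of Runx3 peaks that overlapped them. Boxes span the quartiles with the median in red and whiskers the full range; the median is 42.1% in the 128 domains with 0 peaks, 45.6% with 1 peak and 48.0% in the 81 with 5 or more.

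The RUNX consensus, shown in capitals in the printed windows, occurred in the central 200 bp of 71.1% of the peaks in domains (69.1 to 73.0%). Windows of the same width in the domains but away from peaks held it in 29.5% of cases. The share was 70.6% (68.9 to 72.3%) for peaks in regions of 5 to 10 kb, which overlaps that of the domains. An ETS consensus (AGGAAGT or the form CGGAAGT, either strand) was in 20.1% of peaks in domains and 5.81% of windows away from peaks. By variant, TGTGGT was in 48.3%, TGTGGC in 28.0%, TGCGGT in 7.83% and TGCGGC in 4.27% of the peaks in domains. In narrower regions the latter 2 variants were in 12.9% and 9.62%. Among peaks at least 1 kb from a start, 70.7% (68.6 to 72.8%) in domains and 75.6% (74.6 to 76.6%) in narrower regions held any variant. Under 1 kb from a start the order was turned, with 73.9% (68.0 to 79.0%) and 64.4% (62.8 to 65.9%).

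Domains occurred in series along some loci. Of 972 pairs of neighbouring domains, 240 were under 50 kb apart, and 399 domains fell into 159 runs with gaps below that distance. Some gaps were short, with 56 pairs under 1 kb apart and 102 under 5 kb. Whether such pairs were single stretches split in the calling of regions was not tested. The run named for Prex1, an exchange factor for Rac, had 6 domains and 22 peaks over 227.6 kb (chr2:166310394-166537954). Of these, 3 domains with 18 peaks touched the gene. A run of 6 domains with 19 peaks over 161.2 kb included Il2rb, Rac2, a GTPase of leukocytes, and Cyth4 (chr15:78277904-78439065). The run named for Itgb1, the beta-1 integrin, had 6 domains and 11 peaks, but 1 domain with 1 peak touched the gene. The other domains of that run touched no protein-coding gene, with edges 28893 to 132816 bp from the Itgb1 start. The Gimap genes of lymphocyte survival had 5 domains and 12 peaks. A run beside Klrb1c and Klrb1b had 4 domains and 17 peaks in 115.4 kb (chr6:128677794-128793143). Domains also touched 12 of 1576 annotated miRNA genes, a smaller share than the 3.36% of protein-coding genes. However, miRNA genes offer far fewer bases to touch, and among protein-coding genes under 10 kb the share was 0.937%. The part of length in this difference was not tested. The touched miRNA genes included the cluster of Mir23a, Mir27a and Mir24-2 in a 14209 bp domain with 3 peaks and Mir342 in a 24345 bp domain with 1 peak.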

How the data were processed

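ChIP-seq of Runx3 and of H3K4me1 had 1 sample each, with 1 NIS control whose signal was not analysed here. Per the methods of the study, the authors aligned 40 bp reads to mm9 with ELAND (CASAVA 1.7 in the submitters' processing notes), kept unique alignments, joined the reads of biological repeats, brought the deeper of the sets compared down to the depth of the shallower, and used MACS with NIS as control to call regions. The deposited lists hold region coordinates as the only measurement, with no score, p-value or summit, so depth and signal at a region are unknown, and a weak call counts like a strong one. The labels call each sample the first experiment, so which reads made the lists is not settled, but each antibody has 1 list and no replicate list was analysed.

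Domains were regions whose end minus start was at least 10000 bp. A peak counted as in a domain by an overlap of 1 bp, and densities, spacings and positions used midpoints. Genes came from GENCODE M1 on mm9, without 2 read-through models over 3 Mb. The 3 listed symbols with no protein-coding match were left out, and 1 H3K4me1 region ran past a chromosome end. Domains were named by the gene sharing most bases, otherwise by the nearest start. Named domains were the 10 widest, the 10 with most peaks, the 10 densest, the 10 widest without a peak, those beside the limit and those at listed genes. Domains at Prex1, Gimap and other runs, at Mbnl1 and at miRNA genes, and listed genes without a domain, were chosen after their values were seen. Some domains that this rule names are not reported here. Domains and gene lists were chosen with earlier results of these data known. Shares have Wilson, densities exact Poisson and medians order-statistic intervals. No test was made, because 1 list per antibody gives no replicate error. Python 3.11.15, numpy 2.4.6, scipy 1.17.1 and matplotlib 3.10.9 were used, and counting was tested on simulated regions.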

Additional observations from a re-analysis of the deposited data

How the results depend on the processing

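Of 50 alternatives over 9 results, 24 stayed within the counting interval (for the number of domains, within 1.5 times) and 26 moved. The RUNX share moved only with the whole peak searched (94.96%). A limit of 8 kb gave 1649 domains, 83.1% with a peak, a spacing of 3234 bp and 57.2% of NK genes touched. A limit of 15 kb gave 367 domains, 94.6% with a peak, 3912 bp, 30.0% with a start, 27.1% of NK genes and 9.99% of peaks under 1 kb from a start. Regions under 1 kb apart, merged first, gave 1740 domains, 1.18 peaks per 10 kb, 3810 bp, a position of 0.515, 50.7% with a start, 60.8% of NK genes and 22.0% of peaks under 1 kb from a start. With the Runx3 peaks wider than the median of 825 bp, 72.2% of domains had a peak, at 0.790 per 10 kb, 4202 bp and a position of 0.584. Domains with a start were 12.7% with 1 start per gene and 46.0% with starts within 1 kb counted. NK genes with a transcript start inside were 20.5%. Protein-coding transcripts alone put 7.97% of peaks under 1 kb from a start. Autosomes alone moved none of the 9 results. No paired analysis was possible because each antibody had 1 list, and leaving out a replicate could not be done. The number of domains, their peaks and the touched genes moved with the width limit, and their number, starts and touched genes with the merging of nearby regions. Lists without scores cannot show how strong a region was.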
